A study of Ovis aries with 7 samples.

Results

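The neuregulins NRG1, NRG2 and NRG3 and the ErbB receptors ERBB3, ERBB4 and EGFR were followed through the cell classes of the sheep striatum. They are 6 of the 26479 features in the count files, taken by gene symbol, and each symbol matched 1 Ensembl gene. The nuclei came from 12 sheep aged 5 years. OVT73 sheep carry a transgene of the full-length human huntingtin cDNA with an expanded CAG repeat, driven by a human HTT upstream segment and keep their own sheep HTT genes. Controls were wild-type sheep of the same age. Frozen anterior striatum was used in both groups, and the labels name no drug or other agent for either. Each of the 3 OVT73 libraries pooled nuclei of 2 sheep, control libraries 1 and 2 held 1 sheep each, and control libraries 3 and 4 pooled 2 sheep each. The library was therefore the replicate, with n = 3 OVT73 and n = 4 control.

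Neuregulins are growth factors with an EGF-like domain. Most are made as membrane proteins that proteases can cut, and they bind ERBB3 or ERBB4 on a neighbouring cell. ERBB4 has a working kinase, ERBB3 has little kinase activity of its own and signals in a pair with another ErbB receptor, and EGFR answers to a separate set of ligands such as TGFA. In the brain the family is known for the wiring of ERBB4-bearing GABAergic interneurons and for the growth and myelination of oligodendrocytes.

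Nuclei were sorted into classes by marker genes, with the 6 genes kept out of the clustering. Of 35272 barcodes, 32595 nuclei were kept, 17438 from OVT73 and 15157 from control libraries, and 30241 of them fell into 15 named classes. The libraries held 27760110 to 70473426 UMIs (unique molecular identifiers, each counted as 1 transcript molecule) in OVT73 and 20887378 to 27704528 in controls. Median UMIs per nucleus were 2221.5 to 2562 in OVT73 and 1858 to 2170 in controls. The added human HTT feature was counted 342, 63 and 27 times across the OVT73 libraries and 1, 2, 5 and 6 times across the controls, in the direction the labels give. Sheep HTT lay between 83.7 and 109 CPM in all 7. There were 159 barcode sequences that occurred in more than 1 library.

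The classes are medium spiny neurons of the direct pathway (D1 MSN-like, 2397 nuclei), of the indirect pathway (D2 MSN-like, 2075) and of the eccentric type (190), PV/Th interneuron-like nuclei (267), oligodendrocyte-like nuclei (15521), oligodendrocyte precursor (OPC)-like nuclei (2936), and astrocyte-like (2092), microglia-like (2797) and neuroblast-like nuclei (1365). These 9 classes had at least 10 nuclei in each library. The markers backed the names with some gaps. TH, the dopamine-synthesis enzyme in the PV/Th name, had 11 UMIs in PV/Th interneuron-like nuclei, PVALB had 123, and COL19A1 and HS3ST2 carried the class. In the eccentric class OTOF and FOXP2 were high while CACNG5 and PCDH8 had 8 and 2 UMIs. Of the 6 listed D1 markers 5 were measured, DRD1 not among them. TAC1 and EBF1 carried the D1 class, where PDYN and ISL1 had 149 and 109 UMIs. A neuronal cluster of 203 nuclei was left unnamed and untested, a choice made after its values were seen. A class is a set of marker transcripts, not a check of protein or position.

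Levels are given as CPM, the UMIs of a gene divided by all UMIs summed over the nuclei of a class in a library and scaled to counts per 1000000, as mean ± SD over 7 libraries. They compare 1 gene between classes, since transcript length was not used. Free RNA can add UMIs of a gene to nuclei that do not express it, and how many it added was not measured. The class where a gene was lowest is given for comparison. Over all kept nuclei, 1093132 UMIs were of NRG1, 377547 of NRG3, 84841 of NRG2, 459528 of ERBB4, 6585 of ERBB3 and 26690 of EGFR.

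**Figure D1:**
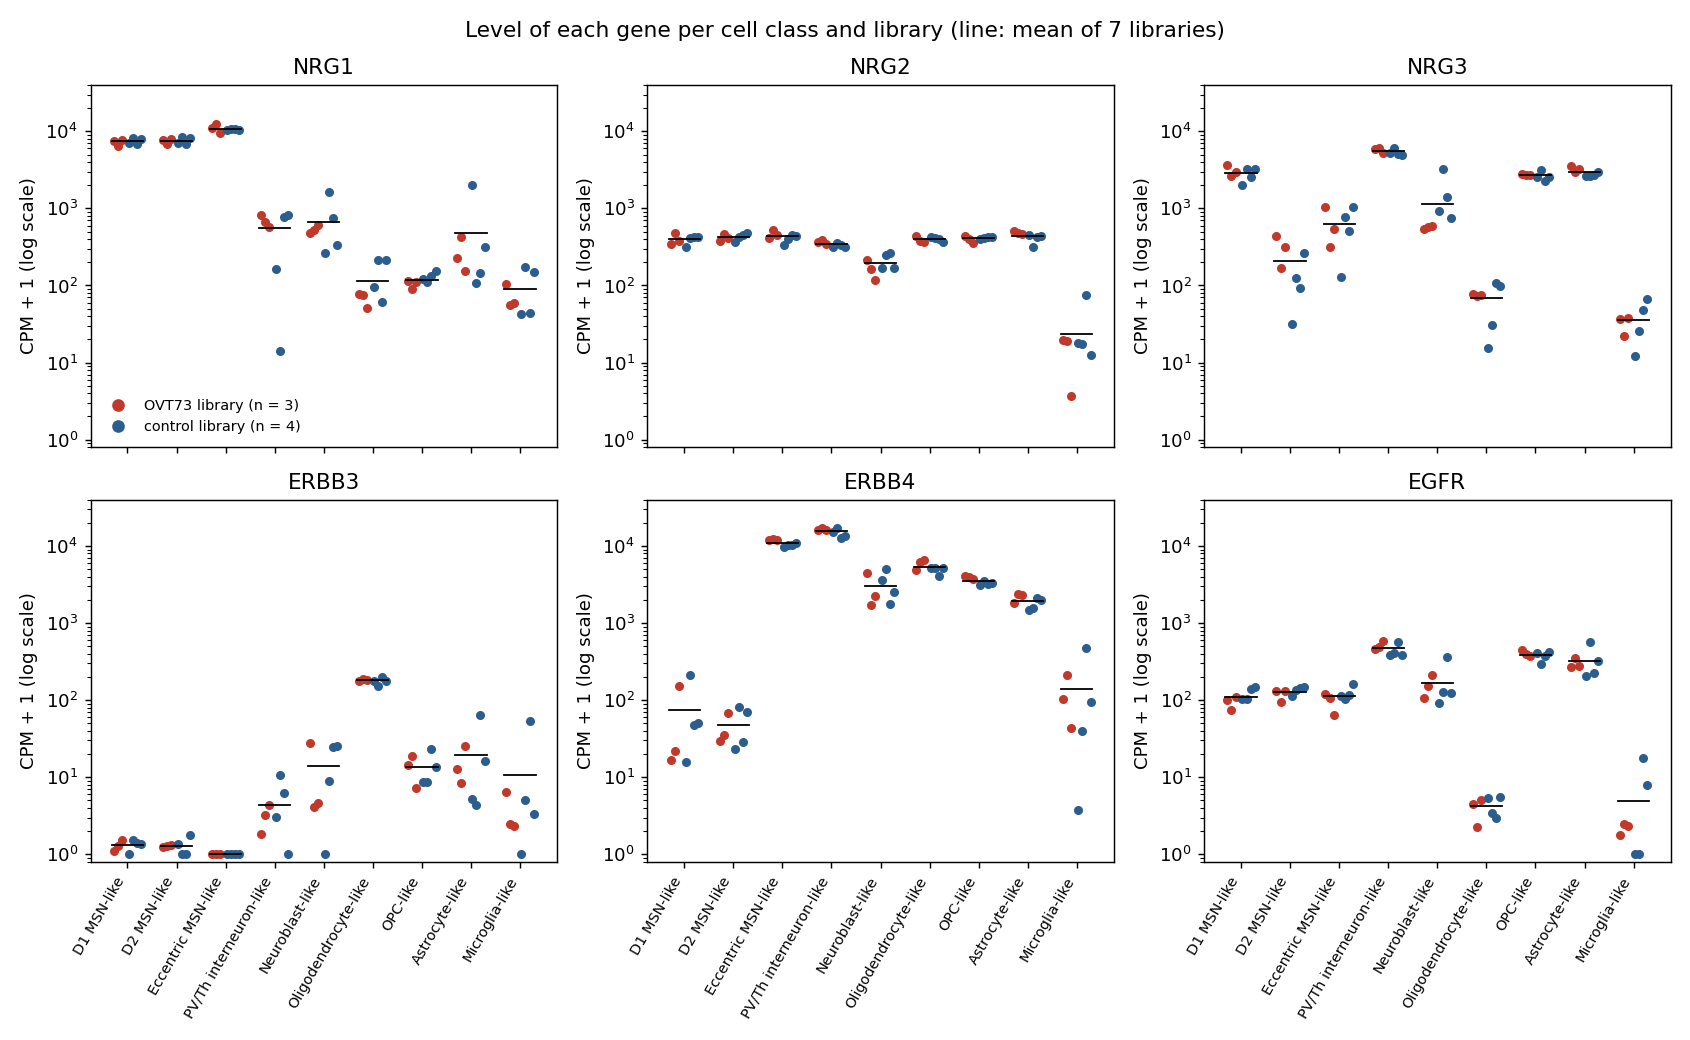
CPM plus 1 on a log axis for each of the 6 genes, by class, with 1 point for each OVT73 and control library. NRG1 is high in the MSN-like classes, NRG3 in D1 but not D2 MSN-like nuclei, ERBB3 in oligodendrocyte-like nuclei, and ERBB4 in PV/Th interneuron-like, eccentric MSN-like and oligodendrocyte-lineage nuclei but low in D1 MSN-like, D2 MSN-like and microglia-like nuclei.

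NRG1, the founding neuregulin, was highest among the tested classes in the MSN-like nuclei. Its level was 10748 ± 817 CPM in eccentric MSN-like, 7578 ± 624 in D2 MSN-like and 7399 ± 623 in D1 MSN-like nuclei. It was 657 CPM or less in the other 6 tested classes, with 88.9 ± 54.0 in microglia-like nuclei. Outside the tested classes, cholinergic interneuron-like nuclei had 1803 CPM over the sum of all libraries and excitatory neuron-like nuclei 5678 CPM. The unnamed clusters ran from 112 to 7277 CPM. Among them the neuronal cluster of 203 nuclei had 4176 CPM, the largest (785 nuclei) 6809 CPM and another of 362 nuclei 6954 CPM. In eccentric MSN-like nuclei the OVT73 libraries (1 to 3, in this order throughout) had 10983, 12285 and 9567 CPM and the controls (1 to 4) had 10485, 10721, 10791 and 10402 CPM. The control values sat inside the OVT73 range, and the lowest eccentric value was above the highest value of any D1 or D2 library. In PV/Th interneuron-like nuclei the mean was 548 ± 330 CPM. The OVT73 libraries had 829, 656 and 580 CPM and the controls 163, 13.1, 764 and 830 CPM. Control libraries 1 and 2, the libraries of 1 sheep each, thus stood far below the other 5. The class had 22 to 62 nuclei by library, and what part the pooling of sheep had in this was not tested.

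In D2 MSN-like nuclei NRG1 was at 7787, 6846 and 7930 CPM in the OVT73 libraries and at 7027, 8375, 6952 and 8129 CPM in the controls. In D1 MSN-like nuclei it was at 7456, 6509 and 7664 CPM and at 7101, 8301, 6851 and 7911 CPM. The libraries came in nearly the same order in both classes, and the D1 level was 0.976 times the D2 level, lower in 6 of 7 libraries. A UMI of NRG1 was found in 99.4% of D1 and 99.5% of D2 MSN-like nuclei when each nucleus was thinned to 1000 UMIs, against 6.71% of microglia-like nuclei. Unthinned, the shares were 100%, 100% and 9.69%, at median depths of 22372, 22797 and 1416 UMIs.

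NRG3, a neuregulin that binds ERBB4, had a different distribution. Among the tested classes it was highest in PV/Th interneuron-like nuclei (5523 ± 528 CPM). The unnamed neuronal cluster of 203 nuclei had 7534 CPM over the sum of all libraries (4122 to 8902 by library). Astrocyte-like (2954 ± 327), D1 MSN-like (2896 ± 532) and OPC-like nuclei (2675 ± 257) came next among the tested classes. Astrocyte-like nuclei were above D1 MSN-like nuclei in 4 of 7 libraries. D1 MSN-like nuclei were above OPC-like nuclei in 5 of 7. Neuroblast-like nuclei had 1141 ± 965 CPM and eccentric MSN-like nuclei 620 ± 350. Below them lay D2 MSN-like nuclei with 205 ± 143 CPM, oligodendrocyte-like nuclei with 67.7 ± 34.0 and microglia-like nuclei with 34.8 ± 18.4.

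The divide between D1 and D2 MSN-like nuclei was seen in each library. In D1 MSN-like nuclei NRG3 was at 3610, 2645 and 2999 CPM in the OVT73 group and at 2028, 3253, 2526 and 3209 CPM in control libraries 1 to 4. In D2 MSN-like nuclei it was at 442, 168 and 314 CPM and at 30.5, 125, 92.7 and 263 CPM. The D1 level was 18.2 times the D2 level (geometric mean, higher in 7 of 7 libraries), and the highest D2 library was below the lowest D1 library. Since these classes were drawn on the same nuclei, the contrast is given without a test. After thinning, 87.5% of D1 and 12.2% of D2 MSN-like nuclei held a UMI of NRG3, against 3.24% of microglia-like nuclei.

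The NRG3 left in D2 MSN-like nuclei was set beside 2 D1 markers in the same nuclei. The D2 level of NRG3 was 12.2%, 6.37% and 10.5% of the D1 level in the OVT73 group, and 1.5%, 3.84%, 3.67% and 8.20% in the control group, by library. EBF1, a transcription factor of direct-pathway neurons, stood at 0.219% to 3.50% by the same measure. TAC1, the gene of their neuropeptide substance P, stood at 3.54% to 7.91%. NRG3 thus ran above EBF1 in every library and above TAC1 in 3 of 7, with OVT73 libraries 1 and 3 the highest and control library 1 the lowest. What part D1 nuclei or their free RNA had in the D2 level of NRG3 was not tested.

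**Figure D2:**
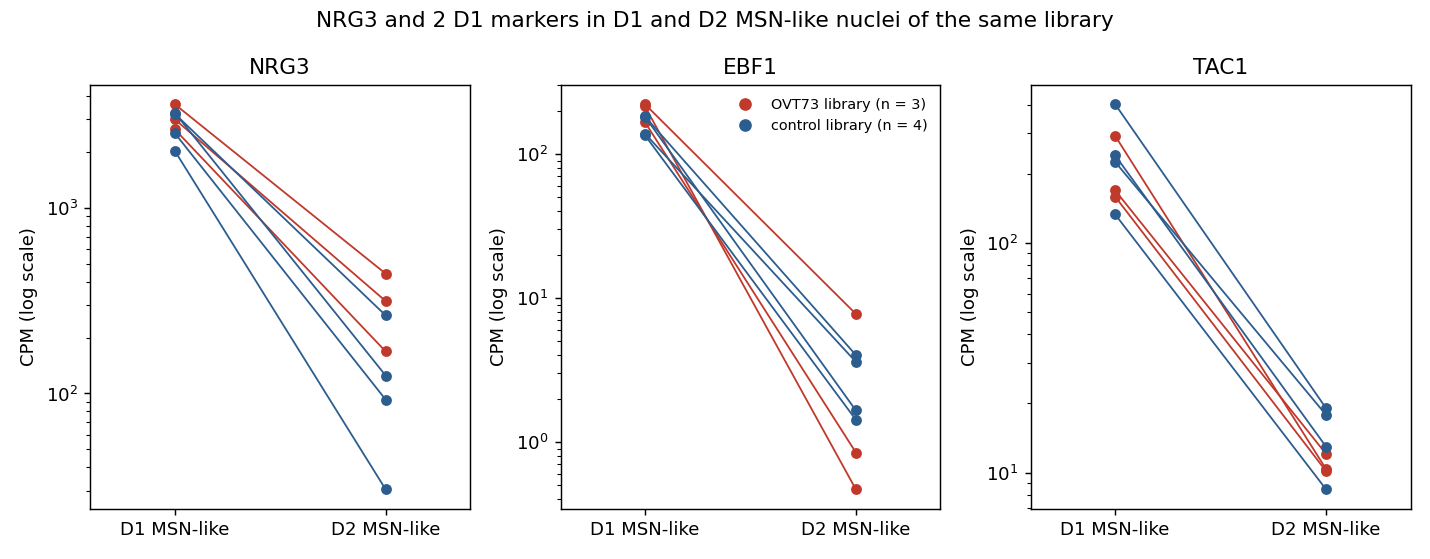
CPM on a log axis of NRG3 and of the D1 markers EBF1 and TAC1 in D1 and D2 MSN-like nuclei, with a line joining the classes of each of the 7 libraries. NRG3 lay between 2028 and 3610 CPM in D1 and between 30.5 and 442 CPM in D2 MSN-like nuclei, and each line goes down from D1 to D2.

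NRG2, the remaining neuregulin gene, was nearly flat. Its mean lay between 344 and 439 CPM in 7 of the 9 tested classes, with astrocyte-like nuclei highest at 439 ± 62.9 and PV/Th interneuron-like nuclei lowest of these at 344 ± 25.9. Neuroblast-like nuclei had 192 ± 52.3 CPM and microglia-like nuclei 22.5 ± 23.1. The astrocyte libraries ran at 501, 486 and 466 CPM in OVT73 and at 453, 311, 426 and 433 CPM in controls, each OVT73 library above each control library. Microglia-like nuclei, the lowest, and neuroblast-like nuclei were the exceptions to the flat profile among the tested classes.

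ERBB4, the receptor of all 3 neuregulins here, was highest among the tested classes in PV/Th interneuron-like nuclei at 15420 ± 1705 CPM, followed by eccentric MSN-like nuclei at 11047 ± 1071. Oligodendrocyte-like nuclei had 5361 ± 817 CPM, OPC-like nuclei 3548 ± 352, neuroblast-like nuclei 3054 ± 1331 and astrocyte-like nuclei 1952 ± 348. An unnamed cluster of 108 nuclei, untested, was higher than all of these at 17931 CPM over the sum of all libraries. The lowest means were those of microglia-like (137 ± 161 CPM), D1 MSN-like (72.8 ± 77.0) and D2 MSN-like nuclei (47.0 ± 24.2). The microglial mean was carried by control library 3 at 470 CPM, and microglia-like nuclei were above D1 MSN-like nuclei in only 4 of 7 libraries (exact permutation p = 0.594, adjusted 0.731), so these were not told apart. Among D2 MSN-like clusters, a cluster of 155 nuclei had 270 CPM. Of its D2 markers, PENK was at 2.32 CPM, against 26.7 to 101 in the other D2 MSN-like clusters. DRD2 was at 61.7 CPM, against 36.7 to 51.2.

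In PV/Th interneuron-like nuclei ERBB4 was at 16203, 17331 and 15915 CPM in the OVT73 libraries and at 14986, 17077, 12856 and 13571 CPM in the controls. In eccentric MSN-like nuclei it was at 11991, 12246 and 12111 CPM in OVT73 and at 9584, 10166, 10364 and 10867 CPM in controls. The interneuron groups overlapped and the eccentric groups did not, with the 3 OVT73 libraries close together above all 4 controls. Thinned to 1000 UMIs, 99.6% of PV/Th interneuron-like and 99.7% of eccentric MSN-like nuclei held a UMI of ERBB4, against 4.63% of microglia-like, 2.97% of D1 MSN-like and 2.93% of D2 MSN-like nuclei. Eccentric MSN-like nuclei thus had both NRG1 and ERBB4 at high levels, whereas the ERBB4 mean of D1 and D2 MSN-like nuclei was 0.472% and 0.305% of that in PV/Th interneuron-like nuclei.

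In oligodendrocyte-like nuclei ERBB4 was at 4944, 6235 and 6570 CPM in OVT73 and at 5255, 5246, 4121 and 5155 CPM in controls. In OPC-like nuclei it was at 4075, 3902 and 3680 CPM in OVT73 and at 3152, 3506, 3250 and 3275 CPM in controls. The oligodendrocyte groups overlapped through OVT73 library 1, and the OPC groups did not overlap. The sum of 7 OPC markers in OPC-like nuclei did not overlap either, and was higher in OVT73. It ran from 18100 to 20242 CPM in OVT73 and from 16906 to 17644 CPM in controls. Whether the ERBB4 difference is apart from that of the markers was not tested. The thinned shares with a UMI were 89.0% and 94.2%.

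ERBB3, the receptor long tied to myelinating glia, was highest in oligodendrocyte-like nuclei. It stood at 179 ± 14.1 CPM there, with 177, 189 and 182 CPM in OVT73 and 179, 152, 199 and 178 CPM in controls. The other 8 tested classes had means of at most 18.5 CPM, and eccentric MSN-like nuclei had 0 of 5034520 UMIs, which allows up to 0.596 CPM. A share of 16.4% of thinned oligodendrocyte-like nuclei held a UMI. Of all ERBB3 UMIs, 87.8% lay in this class, with 77.1% to 93.9% by library, while the class held 14.9% of the UMIs of all genes.

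EGFR, the receptor of EGF and TGFA, had its own pattern. It was highest in PV/Th interneuron-like (468 ± 81.9 CPM), OPC-like (387 ± 46.5) and astrocyte-like nuclei (317 ± 124), lay between 110 and 166 CPM in neuroblast-like and the 3 MSN-like classes, and was lowest in microglia-like (3.86 ± 6.07) and oligodendrocyte-like nuclei (3.18 ± 1.30). In OPC-like nuclei the OVT73 libraries had 444, 398 and 374 CPM and the controls 411, 298, 374 and 414 CPM, which overlap. From OPC-like to oligodendrocyte-like nuclei EGFR was lower in CPM by a factor of 122 while ERBB4 and ERBB3 were higher in CPM.

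The order of levels was tested by an exact sign-flip permutation test on neighbouring classes over 7 libraries, in 48 neighbour pairs. In 13 pairs the same class was higher in all 7 libraries. That gives an exact permutation p = 0.0156, the smallest the test allows, and an adjusted exact p of 0.0577. None of the 48 passed 0.05 after adjustment. The classes were ordered on these same libraries and nuclei, and a larger difference could not give a smaller p. The test therefore does not decide the order of levels. The 13 include PV/Th interneuron-like over eccentric MSN-like, eccentric MSN-like over oligodendrocyte-like and astrocyte-like over microglia-like nuclei for ERBB4, and eccentric over D2 MSN-like nuclei for NRG1. Neighbours that changed order between libraries include OPC-like, neuroblast-like and astrocyte-like nuclei for ERBB4.

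The UMIs summed over all 7 libraries show how much of each transcript a class supplied. D1 and D2 MSN-like nuclei held 42.6% and 37.7% of NRG1 UMIs, and eccentric MSN-like nuclei 4.98%, when these classes held 29.4%, 25.1% and 2.32% of all UMIs. D1 MSN-like nuclei held 50.5% of NRG3 UMIs (31.3% to 58.3% by library) and the unnamed neuronal cluster of 203 nuclei 10.4%, the last with a spread from 2.53% to 41.1% between libraries.

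The receptors ERBB4 and EGFR were spread differently. Oligodendrocyte-like nuclei held 37.1% of ERBB4 UMIs (30.9% to 43.3% by library), PV/Th interneuron-like nuclei 14.8%, eccentric MSN-like nuclei 12.5% and OPC-like nuclei 9.56%. D1 and D2 MSN-like nuclei held 0.713% and 0.493%. EGFR UMIs were spread as 25.0% in D1 MSN-like, 25.6% in D2 MSN-like and 17.9% in OPC-like nuclei. These shares rest on how many nuclei of a class each library recovered as well as on the level in each nucleus.

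**Figure D3:**
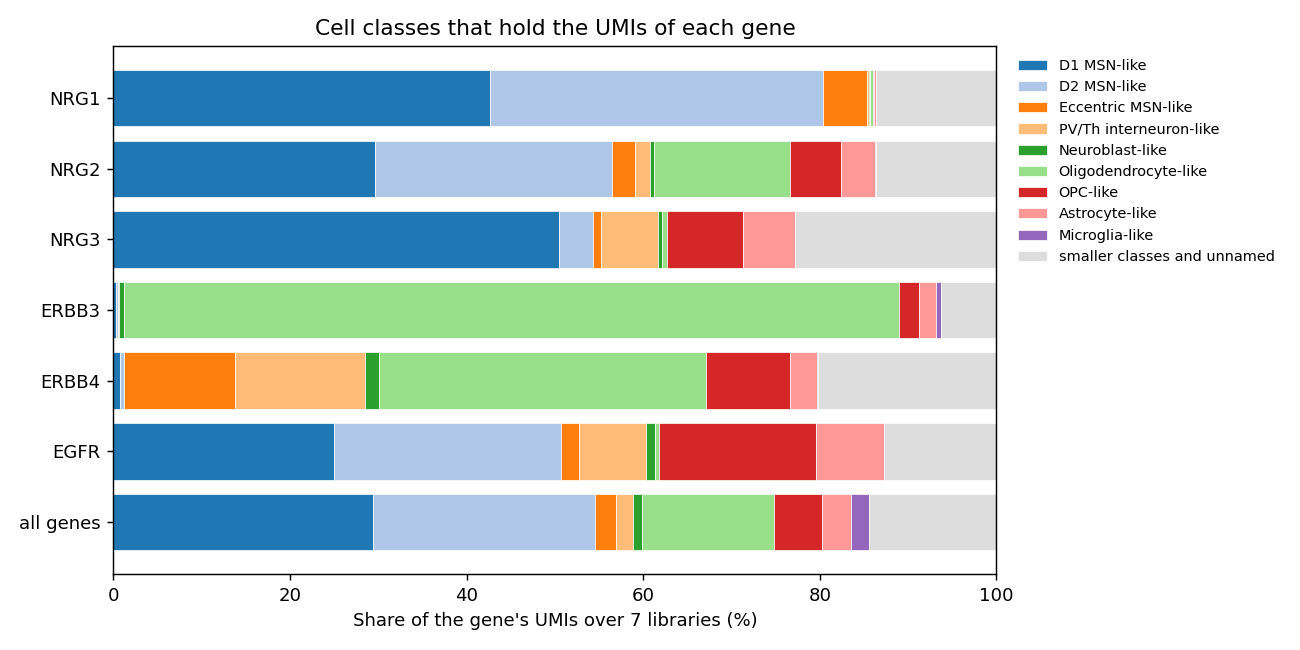
Stacked bars of the percent of the UMIs of each of the 6 genes that lay in each class, over all 7 libraries, beside the same for the UMIs of all genes. NRG1 and NRG3 bars are filled mostly by MSN-like classes (42.6% of NRG1 and 50.5% of NRG3 in D1 MSN-like nuclei), the ERBB3 bar by oligodendrocyte-like nuclei (87.8%), and the ERBB4 bar by oligodendrocyte-like, interneuron-like, eccentric and OPC-like nuclei.

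Ligand and receptor in the same nucleus were counted without thinning. NRG1 or NRG3 was found with ERBB4 in 100% of eccentric MSN-like, 99.6% of PV/Th interneuron-like and 98.1% of OPC-like nuclei. Of oligodendrocyte-like nuclei, 73.5% held ERBB4 with neither ligand and 19.1% held both. Of D1 and D2 MSN-like nuclei, 69.9% and 72.1% held a ligand without ERBB4, and 30.1% and 27.9% held both. ERBB3 and ERBB4 were seen together in 27.2% of oligodendrocyte-like and 4.29% of OPC-like nuclei. The median depth was 1765 UMIs in oligodendrocyte-like, 3594.5 in OPC-like, 14730 in PV/Th interneuron-like nuclei, 22372 (D1) and 22797 (D2) in the MSN-like nuclei, and these shares move with depth.

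Oligodendrocyte-like nuclei fell into 4 clusters, 1 of which (2380 nuclei) had the highest level of ENPP6, a gene of newly formed oligodendrocytes, and of MMRN1. In that cluster ERBB4 was at 2295 ± 669 CPM, against 6092 ± 677 in the sum of the other clusters. It was at 1727, 3114 and 3039 CPM in the OVT73 group and at 2674, 2123, 1346 and 2038 CPM in the controls. The ratio was 0.364, lower in 7 of 7 libraries, given without a test because the clusters were cut from the same nuclei. By CPM, ERBB4 thus stood at 3548 in OPC-like nuclei, lower in the ENPP6 cluster and highest in the remaining oligodendrocyte clusters. By share of nuclei the order of the classes was the reverse. Thinned to 1000 UMIs, 94.2% of OPC-like and 89.0% of all oligodendrocyte-like nuclei held a UMI of ERBB4. Median depth was 3594.5 and 1765 UMIs, so CPM does not give the ERBB4 UMIs per nucleus. The means of those remaining clusters ran from 5351 to 6716 CPM. The cluster at 5351 CPM (2394 nuclei) was led by SCG2, NPY and SST and had the lowest median depth of the 4, at 1383 UMIs. What part RNA of neurons had in that cluster was not tested. ERBB3 was at 161 ± 28.8 CPM in the ENPP6 cluster and at 184 ± 13.2 in the others, lower in 5 of 7 libraries, and at 12.5 ± 5.91 in OPC-like nuclei.

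**Figure D4:**
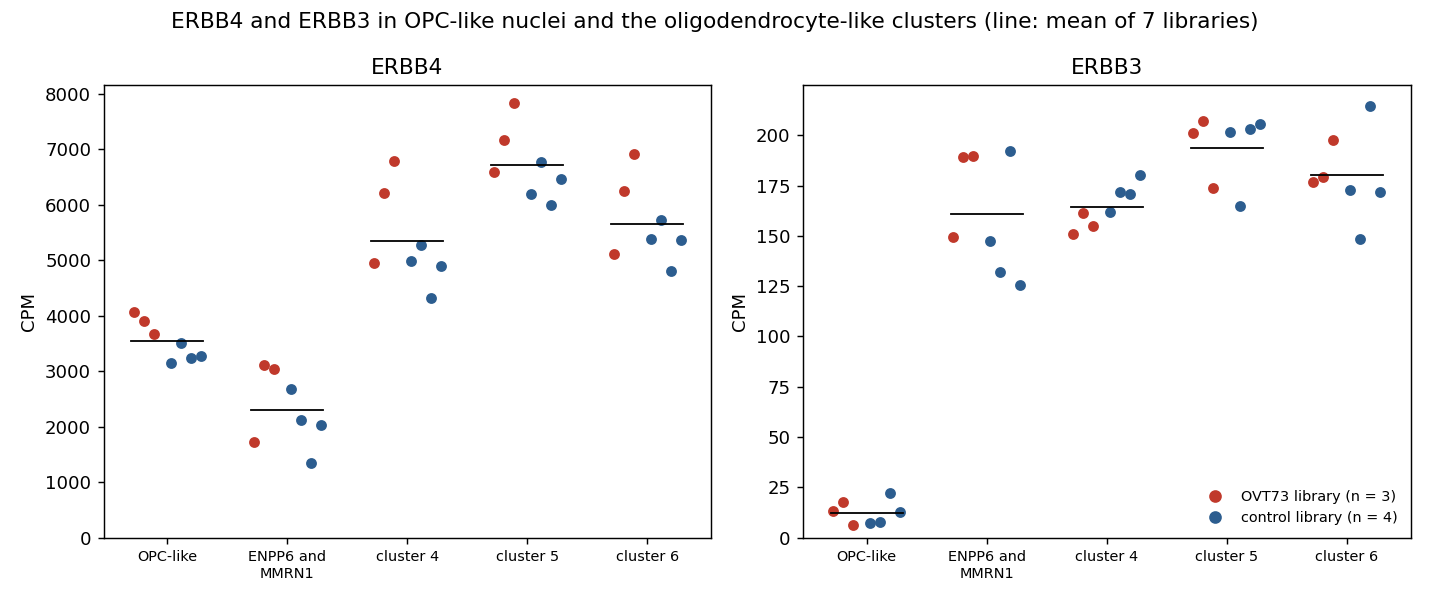
CPM of ERBB4 and ERBB3, on axes from 0, in OPC-like nuclei, the ENPP6 and MMRN1 cluster and the other 3 oligodendrocyte-like clusters, with 1 point per library and a line at the mean. ERBB4 dips to 2295 CPM in the ENPP6 cluster and lies between 5351 and 6716 CPM in the others, while the mean of ERBB3 is 12.5 CPM in OPC-like nuclei and 161 CPM or more in all 4 clusters.

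UMIs of 7 of the 8 listed oligodendrocyte markers were also summed in the other classes. Their summed level in astrocyte-like nuclei ran from 79.3 to 1952 CPM, with control library 3 the highest. It ran from 492 to 602 CPM in PV/Th interneuron-like nuclei, against 6356 to 9023 CPM in oligodendrocyte-like nuclei. The median number of ERBB4 UMIs per oligodendrocyte-marker UMI was 0.724 in oligodendrocyte-like, 0.296 in microglia-like, 1.41 in D1 MSN-like, 1.55 in D2 MSN-like, 4.02 in astrocyte-like, 5.49 in neuroblast-like and 36.8 in OPC-like nuclei. The median ratio was thus higher in all of these but microglia-like nuclei than in oligodendrocyte-like nuclei themselves, with library ranges in D1 (0.771 to 12.2) and D2 MSN-like nuclei (0.804 to 3.86) that overlap the oligodendrocyte range (0.509 to 0.981). For ERBB3 the ratio was 0.0251 in oligodendrocyte-like and 0.0247 in astrocyte-like nuclei, with ranges that overlap, and 0.0973 in OPC-like nuclei. What part oligodendrocyte RNA had in the ERBB4 or ERBB3 of the other classes was not tested.

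The OVT73 comparison asked whether the transgene moved any of the 6 genes within a class. UMIs were summed per library and class and tested with edgeR over all genes of the class. Of 54 pairs of gene and class, 46 had enough counts, and 0 of 46 passed an adjusted p of 0.05 (edgeR, Benjamini-Hochberg). Over the 9 classes, 0.00265% of all gene tests passed (2 of 75437), with 0.0165% in eccentric MSN-like and 0.0111% in OPC-like nuclei and 0% in the other 7 classes. By unadjusted p under 0.05 the counts were 4 of 46 pairs by edgeR, where all genes gave 5%, and 5 of 53 by DESeq2, where all genes, low counts included, gave 2.17%. By adjusted p DESeq2 called 0 of the pairs and 0.0102% of all genes. Of the 46 pairs, 27 had a log2 fold change above 0 and 19 below.

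The libraries did not overlap in 5 of 46 pairs. Each OVT73 library was above each control library in 4 pairs, where all genes gave 3.25%, and below in 1, where all genes gave 2.81%. The 4 were ERBB4 in eccentric MSN-like and OPC-like nuclei and NRG2 and NRG3 in astrocyte-like nuclei, and the other was NRG3 in neuroblast-like nuclei. By class, 3.76% of eccentric, 4.15% of OPC-like and 2.94% of astrocyte-like genes lay above, and 2.36% of neuroblast-like genes lay below, without overlap.

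ERBB4 had log2 fold changes above 0 in 5 of 9 classes, and none passed the adjusted test. In eccentric MSN-like nuclei the log2 fold change was 0.30 ± 0.10 (SE, n = 3 and 4, edgeR adjusted p = 0.445, exact permutation p = 0.0286, the smallest that 35 splits allow). In OPC-like nuclei it was 0.32 ± 0.099 (edgeR adjusted p = 0.643, exact permutation p = 0.0286). In oligodendrocyte-like nuclei it was 0.33 ± 0.15 (edgeR adjusted p = 0.873, exact permutation p = 0.171), and in PV/Th interneuron-like nuclei 0.23 ± 0.12 (edgeR adjusted p = 0.906, exact permutation p = 0.171). The OPC-like value lies outside the rule for printed fold changes and was added after its values were seen.

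No ligand passed the adjusted test either. NRG1 had log2 fold changes of 0.027 ± 0.13 in D1, 0.081 ± 0.12 in D2 and 0.11 ± 0.11 in eccentric MSN-like nuclei (SE, edgeR adjusted p of 0.982, 0.937 and 0.879). Over all 9 classes tested, NRG1 ran more widely, from -1.21 to 0.69, with 4 classes above 0 and 5 below (lowest edgeR adjusted p = 0.757). In astrocyte-like nuclei NRG3 was at 3498, 2990 and 3242 CPM in OVT73 and at 2643, 2660, 2673 and 2975 CPM in controls, a log2 fold change of 0.27 ± 0.12 (edgeR adjusted p = 1.00, exact permutation p = 0.0286). NRG2 in the same nuclei had 0.28 ± 0.15 (edgeR adjusted p = 1.00, exact permutation p = 0.0571). The highest control library was close to the lowest OVT73 library in the first of these.

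NRG3 in 2 more classes was singled out after its values were seen. In D2 MSN-like nuclei the log2 fold change was 1.34 ± 0.64 (edgeR adjusted p = 0.911, exact permutation p = 0.0857), and it ran from 0.99 to 2.02 when 1 library was left out. It was 0.37 (edgeR adjusted p = 0.923) when a cluster of 362 nuclei with both D1 and D2 markers, left unnamed here, was added to the class, an alternative chosen after seeing the data. In neuroblast-like nuclei it was -1.54 ± 0.54 (edgeR adjusted p = 0.999, exact permutation p = 0.171), from OVT73 values of 541, 569 and 591 CPM and control values of 913, 3219, 1410 and 743 CPM. A single nucleus held 60.1% of the NRG3 UMIs of control library 2 and 50.0% of those of control library 3 in that class. EGFR had log2 fold changes between -0.28 and 0.26 in the 8 classes where it was tested, and ERBB3 0.12 ± 0.10 in oligodendrocyte-like nuclei (edgeR adjusted p = 0.882).

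**Figure D5:**
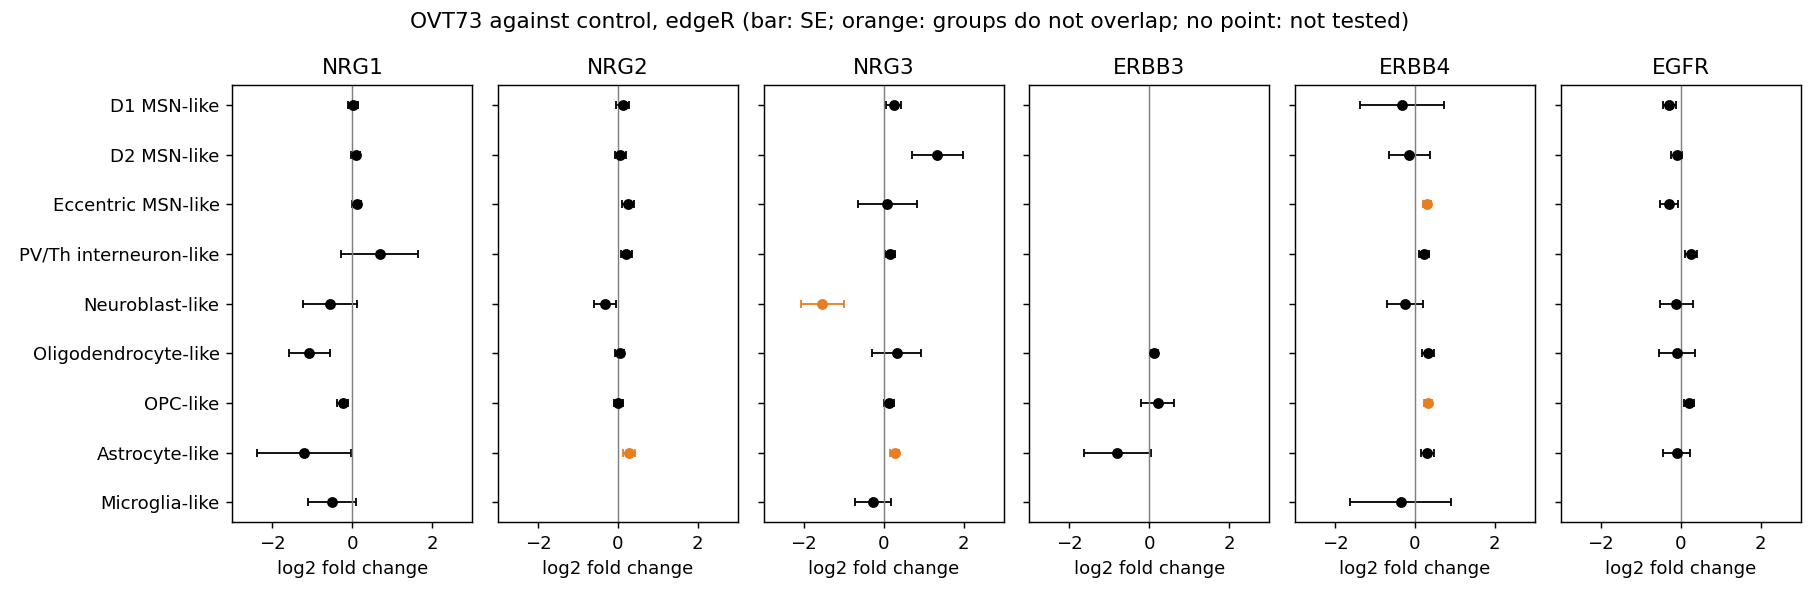
Log2 fold change from edgeR, OVT73 over control, for each of the 6 genes in the classes where it was tested. Bars are the SE, calculated from the F statistic of the test, and pairs whose libraries do not overlap are in orange. No pair passed the adjusted test, and the orange points are ERBB4 in eccentric MSN-like and OPC-like nuclei, NRG2 and NRG3 in astrocyte-like nuclei and NRG3 in neuroblast-like nuclei.

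Whether the OVT73 difference itself differed between D2 and D1 MSN-like nuclei was tested by an exact permutation test of the within-library difference in log2(CPM + 1). For NRG3 the D2 minus D1 difference was -3.41 in OVT73 and -4.76 in controls, a gap of 1.35 (exact permutation p = 0.0857, adjusted 0.257 over the 6 genes). For NRG1 the gap was 0.047 (exact permutation p = 0.0571, adjusted 0.257). Neither gap passed 0.05 after adjustment, and the other 4 genes had larger p-values.

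Other genes of the ErbB pathway were taken from a list of 32, of which 30 were in the annotation. The partner receptor ERBB2 had 171 UMIs over all barcodes, with a highest level of 11.2 CPM in astrocyte-like nuclei. Among these other ligands, EPGN, which acts on EGFR, had the most UMIs (33081) and was at 306 CPM in oligodendrocyte-like and 292 CPM in OPC-like nuclei. TGFA, also a ligand of EGFR, was highest in OPC-like nuclei (154 CPM), NRG4 in microglia-like nuclei (66.8 CPM) and BTC in PV/Th interneuron-like nuclei (31.3 CPM). Of the proteases that cut neuregulins, ADAM10 was highest in macrophage-like nuclei (771 CPM) and BACE1 reached 32.4 CPM. The macrophage-like class had 94 nuclei, with 1 to 48 by library, and was too small to test.

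Downstream and inhibitory genes also had their own classes. LRIG1, which removes ErbB receptors from the surface, was at 948 CPM in astrocyte-like nuclei and 120 in the next class. The adaptor GAB1 was at 1566 CPM and MAGI2, a scaffold protein that binds ERBB4, at 14495 CPM in oligodendrocyte-like nuclei, against 460 and 4543 in the next class. Of the list, 15 to 23 genes were tested per class and 0 passed an adjusted p of 0.05 (edgeR) in either direction in any of the 9 classes. By unadjusted p under 0.05, 0 to 3 per class did, 16 of 180 tests in all (8.89%), where all genes gave 5% over the classes and 3.15% to 7.66% by class. D1 MSN-like nuclei had the most genes tested, 23, of which 19 lay above 0 with a median log2 fold change of 0.13, against 46.4% of all genes above 0 and a median of -0.021. With library totals in place of TMM scaling, which moved the median of all genes there to -0.12, 13 of 23 lay above 0, against 28.2% of all genes. Its 2 smallest p-values were those of MAGI2 with 0.31 ± 0.096 and PIK3CA with 0.32 ± 0.16 (SE, both edgeR adjusted p = 0.95).

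The genes whose level ran most like each of the 6 across the 15 named classes were taken by Pearson r of log2(mean CPM + 1) among 10476 genes, as a description over classes that share libraries. For NRG1 these were FOCAD (r = 0.920), BAIAP2 and HOMER1. For NRG3 they included SLC1A4 (r = 0.939) and ZNF454, and for NRG2 they were RIC3 (r = 0.981), JAZF1 and TNRC6C. For ERBB3 they were ARAP2 (r = 0.949), TMC7 and PLA2R1, and for EGFR ABLIM1 (r = 0.861), PPARGC1A and SLC4A4. For ERBB4 the highest was an unnamed Ensembl gene (r = 0.853), followed by GARNL3 and SEZ6L. Between the 6 genes, r was -0.69 for NRG1 with ERBB3 and -0.03 for NRG1 with ERBB4. Each class counted alike in r, small ones included, and macrophage-like nuclei (94) had 0 UMIs of NRG2. How far such low classes set the r values of NRG2 was not tested.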

How the data were processed

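Single-nucleus libraries were made by the authors with the 10x Genomics 3′ kit from nuclei of frozen striatum, and the deposited files hold raw UMI counts per feature and barcode, made by the authors with Cell Ranger 7.0.0 and STAR 2.7.2a (versions from the submitters' processing notes) on Oar_rambouillet_v1.0 with Ensembl genes and an added human HTT. The authors do not state in words whether intronic reads were counted. Their library statistics place a larger share of reads on the transcriptome than on exons in every library. The counts thus appear to include intronic reads. How many UMIs of each gene came from introns was not measured. The counts precede the assignment of nuclei to sheep, which was not used here, so pooled sheep were not separated. Transcript lengths and coordinates were not used, since the only reference table belongs to a different assembly.

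Nuclei with 200 to 7500 genes and at most 5% UMIs on 35 mitochondrial features were kept. The automatic doublet threshold of scrublet (scanpy 1.11.5, Python 3.11.15) marked 9 barcodes, so the 4% with the highest scores were removed per library, 1362 in all. The 3000 most variable genes without the 6 genes described gave 30 components, corrected between libraries by an own implementation of the Harmony algorithm and clustered on 20 neighbours at resolution 1 with seed 1. Clusters with a median above 2500 genes were clustered a second time. Clusters were named from 109 of 119 listed markers, where at least 3 were raised by 1 on the log2 scale. The 2354 nuclei left unnamed entered no class, among them a neuronal cluster of 203 nuclei left unnamed after its values were seen, because a marker that its name rested on is not reported here. Free RNA was not removed. The second round and the naming thresholds were set after marker profiles and the levels of the 6 genes by cluster had been seen.

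Groups were read from the HD and HC prefixes of the sample titles, as OVT73 and control. UMIs were summed per library and class. OVT73 and control sums were compared with edgeR 4.0.16 in R 4.3.3 (filterByExpr, TMM, robust quasi-likelihood, two-sided) over all genes of a class, with Benjamini-Hochberg adjustment and a threshold of 0.05. The SE of an edgeR log2 fold change was calculated from the fold change and the F statistic of its test. Tested on simulated data drawn from the D1 MSN-like sums, the script recovered most genes given the larger of 2 simulated folds. The changed genes had high expected counts, and the simulated spread between libraries was set alike for all genes. How often the script would find log2 fold changes as small as those printed for the 6 genes, with n = 3 and 4 libraries, was not tested. DESeq2 1.42.0 was an alternative. Exact permutation tests were two-sided over the 35 splits of 7 libraries (smallest p 0.0286). The text names the 6 genes in every class, with fold changes for tested classes at 25% or more of the gene's highest class, a pathway list of 32 genes with its 2 smallest p-values in the class with most genes tested, and the 3 genes most alike to each of the 6 (not all printed) among those with at least 20 CPM in 1 class. Alternatives were library totals without TMM, no filter, doublets kept, the 6 genes in the clustering, a mean over nuclei, a pseudocount of 5 in place of 1 CPM, thinning to 500 in place of 1000 UMIs (1258 OVT73 and 2092 control nuclei under 1000 UMIs were left out), and each library left out. The genes and lists were chosen with earlier results of these data known. Libraries of 1 or 2 sheep are the replicates, so p-values measure the spread between libraries, and intervals and floors cover counting error only.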

Additional observations from a re-analysis of the deposited data

Results flagged for a closer look

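Within the 4 control libraries, 5 of 46 groups of a gene and class with at least 100 UMIs had 1 library set far apart from the rest by Dixon's criterion, of which chance flags about 1 in 20. ERBB4 in oligodendrocyte-like nuclei was 4121 CPM in control library 3, when the others lay between 5155 and 5255. EGFR in the same library stood at 573 CPM in PV/Th interneuron-like nuclei (others 380 to 412) and at 358 CPM in neuroblast-like nuclei (others 89.5 to 128.4). NRG1 in astrocyte-like nuclei was 1989 CPM in control library 1, against 106 to 310 in the others. There it was found in 57 of 164 nuclei, and the nucleus with the most held 8.84% of its UMIs. NRG3 in astrocyte-like nuclei was 2975 CPM in control library 4, against 2643 to 2673 in the others.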

How the results depend on the processing

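No paired analysis was possible because the replicate numbers follow the order of the samples and the labels tie no OVT73 library to a control library. None of the 6 genes passed the adjusted edgeR or DESeq2 test in any class under any alternative run, and some log2 fold changes turned in sign. Without TMM, NRG1 was at -0.066 (D1 MSN-like) and -0.020 (D2 MSN-like), and NRG2 at -0.046 in D2 MSN-like, -0.080 in OPC-like and -0.029 in oligodendrocyte-like nuclei. Library totals also moved the median of all genes to -0.12 in D1 MSN-like, -0.13 in D2 MSN-like and -0.10 in OPC-like nuclei. With the 6 genes in the clustering, NRG2 in OPC-like nuclei was -0.028 and EGFR in neuroblast-like nuclei 0.11, and the last was 0.047 with no filter and 0.038 with doublets kept.

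Leaving out 1 library turned EGFR in astrocyte-like (-0.26 to 0.29), D2 MSN-like (-0.19 to 0.029) and neuroblast-like nuclei (-0.35 to 0.37), NRG1 in D1 MSN-like (-0.043 to 0.085) and eccentric MSN-like nuclei (-0.0036 to 0.20), and NRG2 in D1 MSN-like (-0.063 to 0.20), D2 MSN-like (-0.063 to 0.14), OPC-like (-0.044 to 0.10) and oligodendrocyte-like nuclei (-0.020 to 0.12). It turned the D2 minus D1 gap of ERBB3 too (-0.14 to 0.21). The gap of NRG1 was 0.062 with the 6 genes in the clustering (exact permutation p = 0.0286). With the mixed cluster of 362 nuclei added to D2 MSN-like nuclei (chosen after seeing the data), NRG3 had a log2 fold change of 0.37. Thinned to 500 UMIs, the shares were 18.9% for NRG2 in astrocyte-like, 92.5% for NRG3 in PV/Th interneuron-like, 8.66% for ERBB3 in oligodendrocyte-like and 19.6% for EGFR in PV/Th interneuron-like nuclei. Under other settings 157 levels stayed within 1 SD of the value given and 5 moved, among them NRG1 in PV/Th interneuron-like nuclei, at 1126 CPM with the 6 genes in the clustering. Few UMIs limit what could be seen, with neuroblast-like nuclei lowest of the tested classes (2074667 UMIs, 4440 genes tested).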

Other observations

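Among the interneurons with too few nuclei to test, ERBB4 was far from uniform. Other interneuron-like nuclei (56, led by NXPH1, CALCR and CRABP1) had 10610 CPM of ERBB4 over all libraries, and cholinergic interneuron-like nuclei (56) had 4460 CPM. SST/NPY interneuron-like nuclei (106) had 595 CPM, with 105 to 1080 by library. NRG3 was at 6376, 5019 and 2132 CPM in these classes, and NRG1 at 1525, 1803 and 745 CPM. EGFR was at 337 CPM in other interneuron-like nuclei, 38.9 in cholinergic and 7.10 in SST/NPY interneuron-like nuclei. These are sums over libraries, and the intervals cover counting error only.

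A cluster of 108 nuclei without a name, since eccentric MSN and interneuron markers were both raised, was led by FOXP2, UNC5D and VWC2L. It had 17931 CPM of ERBB4 (95% Poisson interval 17723 to 18140), with 13603 to 20568 by library, and 4645 CPM of NRG1, and held 6.21% of all ERBB4 UMIs with 0.734% of the UMIs of all genes. Its NRG3 was at 249 CPM. Excitatory neuron-like nuclei had 5678 CPM of NRG1, but 173 of their 237 nuclei came from OVT73 library 1.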
